A study of Mus musculus with 16 samples.

Results

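Connecting tubule (CNT) cells were examined in single-cell RNA-seq libraries from the kidneys of 16 mice. They were found as cell barcodes by the transcripts they carried. A barcode had to hold 200 to 7000 detected genes and at most 50% mitochondrial unique molecular identifiers (UMIs). Calb1 and S100g together had to make up at least 1% of its UMIs, and it had to hold at least 1 UMI of Slc8a1. At most 2 UMIs of Slc12a3, the marker of the distal convoluted tubule (DCT), and at most 2 of Aqp2, the marker of collecting duct principal cells (PC), were allowed. Barcodes with any UMI of Cubn, Pecam1, Pdgfrb or Ptprc, which mark proximal tubule (PT), endothelial, mesangial and immune cells, were left out. This gave 1420 CNT barcodes among 94436 barcodes that passed the gene and mitochondrial filters, from 116439 in the files.

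The connecting tubule joins the distal convoluted tubule to the collecting duct. Its cells reabsorb calcium: Ca2+ enters through the channel Trpv5, is carried by the calcium-binding proteins Calb1 (calbindin-D28k) and S100g (calbindin-D9k), and leaves through the sodium-calcium exchanger Slc8a1 and the pumps Atp2b1 and Atp2b4. They also take up sodium through the epithelial sodium channel (subunits Scnn1a, Scnn1b and Scnn1g) under the control of aldosterone, with Hsd11b2 shielding the mineralocorticoid receptor from glucocorticoids, and they secrete kallikrein, the product of Klk1.

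The mice were BTBR ob/ob (DN mice), which lack functional leptin and become obese and diabetic, and BTBR +/+ (control mice). In the study, mice of 6 weeks stood for the beginning of diabetic nephropathy and mice of 12 weeks for early disease, and the genotypes were compared cell type by cell type. Each genotype was represented by 2 females and 2 males at 6 weeks and by 2 females and 2 males at 12 weeks, with 1 library per mouse. By the study's methods the mice of both genotypes carried a tdTomato/EGFP reporter at ROSA26 and a Cre transgene active in podocytes. Both kidneys of a mouse were pooled, the papilla was removed, and a Percoll gradient depleted PT fragments, so that shares of barcodes are not shares of the whole kidney. Dead cells were removed before droplets were loaded.

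The libraries held 10510855 to 125551519 UMIs. How often libraries shared barcodes divided them into 12 libraries and 4 smaller ones, the replicate 1 library of each female group, which held at most 21728793 UMIs. Libraries of the same batch shared 7 to 55 barcodes with each other and libraries of different batches at most 3, but no CNT barcode occurred in more than 1 library. The CNT barcodes together held 11687744 UMIs, with a median of 3053 UMIs, 1192 genes and 27.1% mitochondrial UMIs per barcode. The library medians ran from 754 UMIs (control male 6 weeks replicate 2) to 11737 (control male 6 weeks replicate 1) in control mice and from 1283 to 5421 in DN mice. Control female 6 weeks replicate 1 held 1 CNT barcode and DN female 6 weeks replicate 1 held 5. These 2 libraries were left out of every comparison of gene levels, which therefore used 14 libraries, with 1 female library per genotype at 6 weeks.

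The thresholds cut through a continuum. The median CNT barcode had 2.97% of its UMIs from Calb1 and S100g. Just inside the 1% limit, between 1 and 1.1%, lay 57 CNT barcodes, and 75 barcodes that met every other condition lay just outside, between 0.9 and 1%. Another 6508 barcodes failed only on Slc8a1, 3716 only on Aqp2, 1219 only on Slc12a3 and 121 only on the markers of other lineages.

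The barcodes carried the transcripts of the segment. Levels are given in CPM, the UMIs of a gene per 1000000 UMIs of the barcodes summed. Genes with a mean level of at least 100 CPM in CNT barcodes were ranked. The ranking used the ratio of this mean to the mean level in all barcodes of the same 14 libraries. Klk1 came first at 9.47, followed by Slc8a1 (6.97), S100g (6.38) and Clu (6.14), the gene of the chaperone clusterin. Kl, which encodes the FGF23 co-receptor klotho, stood at 4.95, Calb1 at 4.61, the plasma membrane calcium pump gene Atp2b4 at 4.52 and the vitamin D receptor gene Vdr at 3.30. All of these were higher in CNT barcodes in 14 of 14 libraries. Calb1, S100g and Slc8a1 are fixed by the rule, and no test was made of barcodes chosen by their transcripts against the rest. Of the markers that the rule did not use, Trpv5 was at 84.7 ± 27.6 CPM in CNT barcodes against 22.0 in all barcodes, Scnn1b at 211 ± 49.3 against 125, Scnn1g at 267 ± 65.0 against 103, and Hsd11b2 at 981 ± 368 against 855 (mean ± SD, n = 14 libraries). Atp2b1, also on the marker list, was lower than in all barcodes, at 93.4 ± 19.6 against 121 CPM. The level of Kcnj1, the remaining marker of that list, is not given here. In 15886 PT barcodes (at least 3 UMIs of Slc34a1 and 1 of Lrp2), cells that should lack these transcripts, the means were 3.77 for Trpv5, 20.6 for Scnn1b, 16.7 for Scnn1g, 141 for Hsd11b2 and 741 for Klk1, against 33687 for Klk1 in CNT barcodes.

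Transcripts of other cell types were present at levels that differed between the types. The 7 counted markers of endothelial cells summed to 0 to 32.2 CPM in the 14 libraries, with Pecam1 and Plvap at 0, and those of immune cells to 0 to 12.3, with Ptprc, C1qa, Cd3e and Cd79a at 0. Pecam1, Ptprc, Cubn and Pdgfrb are at 0 by the rule. The 6 podocyte markers reached 95.9 CPM, the 7 mesangial and smooth muscle markers 313 and the 6 markers of the ascending loop of Henle 333 to 744. Markers of PT cells summed to 36.8 to 3132 CPM, with the highest value in control male 6 weeks replicate 2. Red blood cell markers reached 699.6 CPM in control male 12 weeks replicate 2 and at most 12.3 in the other libraries. The 10 markers of intercalated cells, the acid-base transporting neighbours of CNT cells, summed to 249 to 3136 CPM.

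CNT barcodes differed widely in depth. The 429 barcodes with at least 10000 UMIs (30.2% of CNT barcodes) held 78.2% of all CNT UMIs, and the 393 with 500 to 999 UMIs held 2.22%. The median mitochondrial share was 35.0% in the first of these classes and 13.9% in the other. Klk1 was at 38885 CPM in the deepest barcodes and at 10220 in the shallowest, while Scnn1b was at 235 and 243. Pvalb was at 193 CPM in the shallowest and at 4.81 in the deepest class, and Slc34a1, a phosphate transporter gene of PT cells, at 559 and 16.4, while Umod, the uromodulin gene of the ascending limb, was at 297 and 371. Atp6v1g3, a proton pump subunit gene of intercalated cells, was at 931 in the deepest and at 1250.0 in the shallowest class. Among the 810 barcodes with at least 2000 UMIs, 60 from 13 libraries carried over 3000 CPM of Atp6v1g3. In these 60 barcodes Klk1 was at 20822, S100g at 16925 and Calb1 at 2889 CPM, and in the other 750 at 40458, 35814 and 6831.

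The share of CNT barcodes was compared between the genotypes first. In control mice at 6 weeks the 2 female libraries held 1 of 2927 (0.0342%) and 34 of 6102 (0.557%) and the 2 male libraries 91 of 6732 (1.35%) and 225 of 9779 (2.30%). In DN mice at 6 weeks the shares were 0.140% and 0.697% in females and 0.499% and 0.752% in males. The ranges overlapped. At 12 weeks the shares were 0.442% and 3.87% in control females, 2.10% and 4.42% in control males, 0.303% and 0.854% in DN females and 0.909% and 1.37% in DN males. Of the control libraries at 12 weeks, 3 lay above every DN library, and control female 12 weeks replicate 1, of the smaller batch, lay among them. The 95% Wilson intervals, which cover counting error only, were narrow beside these differences: 3.98 to 4.90% for the highest share (340 of 7701) and 0.00603 to 0.193% for the lowest.

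Over both ages the mean share was 1.88 ± 1.61% in control mice (n = 8) and 0.691 ± 0.384% in DN mice (n = 8), a difference of −1.19 percentage points (exact two-sided permutation test within sex and age, p = 0.0278, and 0.0833 after Benjamini-Hochberg adjustment over the 3 tests of shares, so that the difference did not pass the correction). Among the 8 pairs of same-sex, same-age and same-numbered mice, the DN share was the lower in 6. At 6 weeks alone the means were 1.06 ± 0.988% and 0.522 ± 0.277% (n = 4 each, exact p = 0.429, also after adjustment), a difference that ran from −0.881 to −0.126 percentage points without 1 library (exact p = 0.0857 to 0.857) and was smallest without control male 6 weeks replicate 2. For the older mice the means were 2.71 ± 1.81% and 0.859 ± 0.437% (n = 4 each, exact p = 0.114, adjusted 0.171, smallest possible 0.0286). In these tests of 1 age the labels were permuted within the age, without regard to sex. Taken as a share of CNT, DCT and PC barcodes together, CNT barcodes made up 13.3 ± 11.7% in control and 4.83 ± 3.01% in DN mice (n = 8 each, exact permutation p = 0.0293). The unadjusted p over both ages was above 0.05 when barcodes were thinned to 1000 UMIs (3.20 ± 2.58% against 1.87 ± 1.32%, n = 8 each, exact p = 0.156). Thinning left out 16062 barcodes with fewer UMIs, and the limits on Slc12a3 and Aqp2 were applied after it. Its 2133 CNT barcodes among 78374 are thus another set over another denominator. The unadjusted p was also above 0.05 when at most 20% mitochondrial UMIs were allowed (exact p = 0.341), or without 1 of 5 libraries (control male 12 weeks replicate 1 or 2, DN female 6 weeks replicate 1 or 2, or DN female 12 weeks replicate 1, exact p = 0.0602 to 0.0972). The 20% limit left 524 CNT barcodes and 0 in the 4 libraries of the smaller batch. Still unadjusted, the exact p was 0.0185 with at least 2% Calb1 and S100g, and 0.0278 within the larger batch. It was 0.0401 with at most 2 UMIs of Slc12a1 and of Atp6v1g3, and 0.0469 with labels permuted within same-numbered pairs. For CNT barcodes of at least 2000 UMIs, a limit chosen after seeing the data, it was 0.00926. At 12 weeks the unadjusted p was 0.0286 without control female 12 weeks replicate 1. The rule reads the levels of Calb1 and S100g, so fewer CNT cells and cells that pass the rule less often cannot be told apart. The study, which clustered the cells rather than using this rule, described similar control and DN fractions in all cell types but podocytes.

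**Figure D1:**
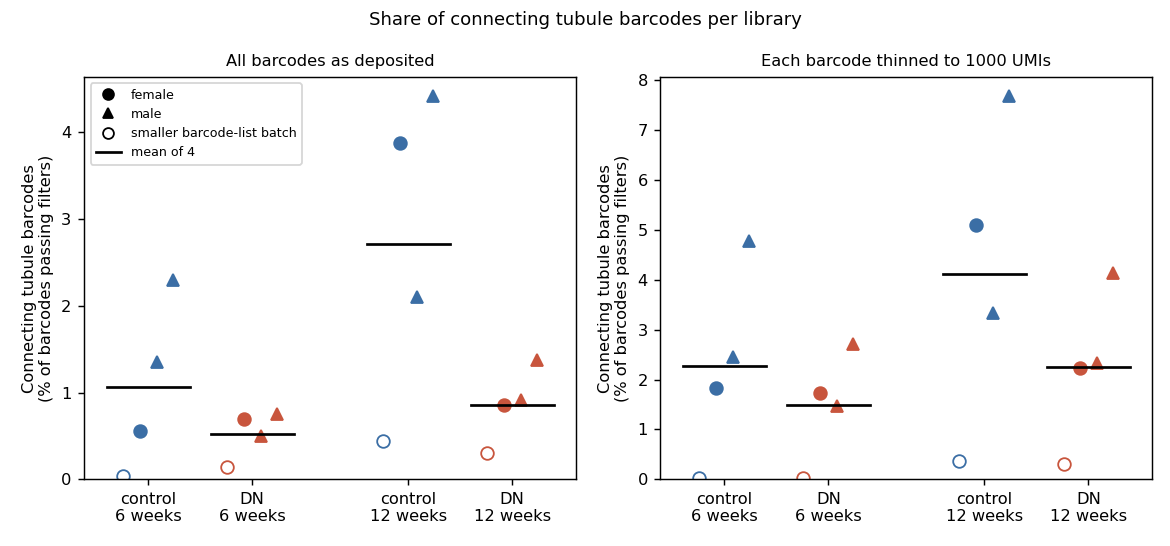
Share of CNT barcodes among barcodes that passed the filters (%, y axis) in each of the 16 libraries, by genotype and age. The left panel has all barcodes as deposited. The right panel has only barcodes of at least 1000 UMIs, each thinned to 1000 before the rule was applied. Circles are females, triangles males, open symbols the 4 libraries of the smaller batch, and lines the means of 4 libraries. In the left panel 3 control libraries of 12 weeks, at 2.10 to 4.42%, lie above all 4 DN libraries, at 0.303 to 1.37%.

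CNT barcodes were set beside their neighbours along the tubule, 2971 DCT barcodes (at least 3 UMIs of Slc12a3 making up at least 0.3% of UMIs) and 9809 PC barcodes (the same for Aqp2). Sums per library were compared with the library as a block over the same 14 libraries. Against DCT barcodes, 3372 of 10731 genes passed edgeR's quasi-likelihood test at an adjusted p under 0.05 (31.4%), with 1540 higher (14.4%) and 1832 lower (17.1%) in CNT barcodes. Against PC barcodes, 5943 of 11763 genes passed (50.5%), with 2593 higher (22.0%) and 3350 lower (28.5%). The PC fit depends on its scaling: its log2 differences lay 0.44 above those of plain CPM, by which 31.8% rather than 43.9% of the passing genes are higher in CNT barcodes. Genes that any of the rules used are not read here. Depth differed between the classes in some libraries. Median UMIs of CNT, DCT and PC barcodes were 754, 22039 and 2384 in control male 6 weeks replicate 2. In control female 12 weeks replicate 2 they were 955, 14799.5 and 16272.5, but in control male 6 weeks replicate 1 they were 11737, 13657 and 10226.5. The part of depth in the differences between segments was not tested.

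Of the 9 tested genes of the calcium list, 8 were higher and 1 was lower in CNT than in PC barcodes, where 22.0% and 28.5% of all genes were, with a median log2 difference of 2.91 beside −0.04 over all genes. Against DCT barcodes 3 of 9 were higher and 3 lower, where 14.4% and 17.1% of all genes were (median 0.16 beside −0.01). Atp2b1 is 1 of the 8 by the fit (0.28) but was lower than in PC barcodes by plain CPM, at 93.4 against 109.5. Trpv5, the apical calcium channel, averaged 84.7 ± 27.6 CPM in CNT, 39.0 ± 19.1 in DCT and 21.9 ± 18.9 in PC barcodes (n = 14 each). It was higher in CNT than in DCT barcodes in 12 of 14 libraries (log2 difference 1.17 ± 0.13 SE, adjusted p = 3.6e-10) and higher than in PC barcodes in 14 of 14 (2.91 ± 0.28, adjusted p = 4.0e-11). Pth1r, the parathyroid hormone receptor gene, and Atp2b4 did not pass the test between CNT and DCT barcodes (262.7 against 269.8 and 130 against 110 CPM) and were higher than in PC barcodes by 4.36 and 4.48 on the log2 scale. Kl and Vdr were higher than in DCT barcodes by 0.44 and 0.38 and higher than in PC barcodes by 3.38 and 3.56. Pvalb, which encodes parvalbumin and marks the early DCT, averaged 23.4 CPM in CNT and 2210 in DCT barcodes (log2 difference −7.06, lower in 14 of 14 libraries).

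Of the 3 sodium channel subunit genes, Scnn1b lay between its levels in DCT and PC barcodes, Scnn1g was higher than in DCT barcodes and Scnn1a passed neither test. Scnn1g averaged 267 ± 65.0 CPM in CNT, 43.8 ± 31.2 in DCT and 326 ± 75.9 in PC barcodes. It was higher in CNT than in DCT barcodes in 14 of 14 libraries (log2 difference 2.75 ± 0.13, adjusted p = 9.2e-23) and did not pass the test against PC barcodes (adjusted p = 0.126). Scnn1b was higher than in DCT barcodes by 1.68 and lower than in PC barcodes by 0.51 on the log2 scale. Hsd11b2 rose stepwise: 44.6 ± 34.6 CPM in DCT, 981 ± 368 in CNT and 3420 ± 771 in PC barcodes (log2 difference 4.56 against DCT and −1.46 against PC, each in 14 of 14 libraries). The potassium channel subunit gene Kcne1, the vasopressin receptor gene Avpr2 and the aquaporin gene Aqp3 lay between the neighbours in the same order, at 67.1, 35.9 and 135 CPM in CNT barcodes. The mineralocorticoid receptor gene Nr3c2 was higher than in DCT barcodes by 0.82 and did not pass the test against PC barcodes. The WNK kinase genes Wnk1 and Wnk4 and the ubiquitin ligase adaptor gene Klhl3, which regulate the sodium-chloride cotransporter of the DCT, were lower than in DCT barcodes by 0.75, 0.85 and 1.30 and higher than in PC barcodes by 3.96, 2.10 and 3.02. Of the 19 genes of the sodium list, 6 were higher and 9 lower than in DCT barcodes, where 14.4% and 17.1% of all genes tested were, and 5 were higher and 9 lower than in PC barcodes, where 22.0% and 28.5% of all genes were.

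Klk1 set CNT barcodes apart from both neighbours. It averaged 33687 ± 7556 CPM in CNT, 10154 ± 3554 in DCT and 583 ± 385 in PC barcodes, and was higher in CNT barcodes in 14 of 14 libraries both times (log2 difference 1.71 ± 0.11, adjusted p = 1.6e-18, and 6.56 ± 0.32, adjusted p = 7.5e-19). Reads of Klk1 may be shared with its close relatives in the kallikrein family. Atp6ap2, the prorenin receptor gene, was higher than in DCT barcodes by 0.88 and lower than in PC barcodes by 0.31. Of the 8 tested magnesium genes, 6 were lower and 1 was higher in CNT than in DCT barcodes, beside 17.1% of all genes lower. The magnesium channel genes Trpm6 and Trpm7 were lower by 2.01 and 2.43, and Egf, the gene of a hormone that acts on magnesium uptake, by 6.58 on the log2 scale.

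**Figure D2:**
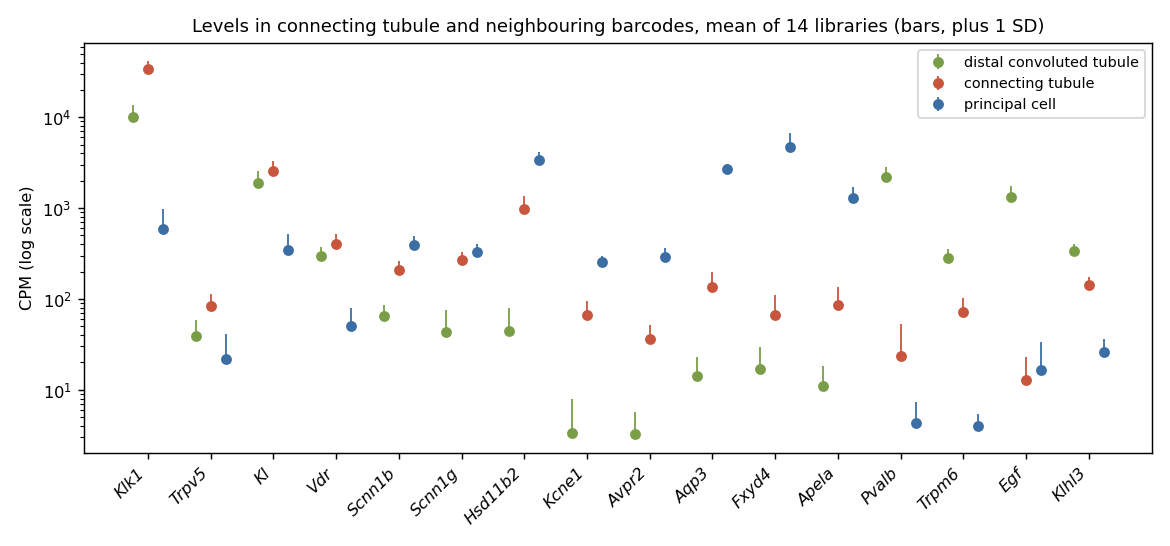
Mean CPM (y axis, log scale) of named genes in CNT, DCT and PC barcodes over 14 libraries, with bars of plus 1 SD. Klk1 and Trpv5 are highest in CNT barcodes, Pvalb in DCT barcodes and Hsd11b2 in PC barcodes.

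Within the CNT barcodes, 116 held Slc12a3 and no Aqp2 (early), 621 held Aqp2 and no Slc12a3 (late), 118 held both and 565 neither. Only 3 control libraries had at least 10 of both the early and the late kind. Of 4898 genes tested 3 passed (0.0612%): Slc12a3 and Aqp2, which define the split, and the haemoglobin gene Hbb-bs. Without 1 of the 3 libraries 5 to 34 genes passed, 34 of them without control male 6 weeks replicate 2. Hbb-bs averaged 172 ± 284 CPM in early and 29.1 ± 49.4 in late barcodes (n = 3). Control male 12 weeks replicate 2, with its 699.6 CPM of red blood cell markers, was among the 3 libraries, and the part of red cell RNA in this call was not tested. At an unadjusted p under 0.05 there were 159 genes (3.25%). Hsd11b2 was at 969 ± 333 in early and 1501 ± 298 in late barcodes (log2 difference −0.59, adjusted p = 1.00) and Scnn1b at 228 ± 59.3 and 280.4 ± 38.1, neither past the threshold. Klk1 was at 36811 ± 2651 and 36744 ± 6273 CPM.

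At 6 weeks no gene passed the threshold between DN and control CNT sums (edgeR's quasi-likelihood test, 0 of 5554, 0.0%). The lowest adjusted p was 0.0542, 410 genes (7.38%) had an unadjusted p under 0.05, and DESeq2 also called 0. With a term for each pair of same-sex, same-age and same-numbered mice, 16 genes passed, 13 higher and 3 lower in DN mice, and without either DN male library of 12 weeks, which enters through the shared estimate of the spread, 8 passed. Levels between the genotypes are given from here on as CPM scaled by TMM factors, and log2 differences as DN against control.

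The genes with the lowest p at 6 weeks were led by genes of intercalated cells. Slc26a4 (chr12:31519827-31559969), which encodes the chloride-bicarbonate exchanger pendrin, was at 7.04, 88.2 and 48.4 in control female replicate 2 and male replicates 1 and 2, and at 177, 154 and 344 in the corresponding DN libraries. The 3 DN values lay above the 3 control values, a pattern seen in 12.0% of all genes tested, and the log2 difference was 2.15 ± 0.40 (SE, adjusted p = 0.0542, and 0.000583 with the pair term). Hmx2, a transcription factor gene on the intercalated cell list, differed by 2.31 ± 0.47, and Igfbp5, which encodes a binding protein of insulin-like growth factors, by 2.29 ± 0.47 (adjusted p = 0.0542 each, and 0.00212 and 0.000419 with the pair term). Igfbp5 was at 17.6, 30.4 and 63.4 in control and 189, 157 and 259 in DN libraries. These counts came from few barcodes. In DN female replicate 2 a single barcode held 55 of 55 Slc26a4 UMIs, and in DN male replicates 1 and 2 the highest barcode held 30 of 48 and 64 of 73. For Igfbp5 the highest barcode held 57 of 59, 31 of 49 and 50 of 55.

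Slc26a4 and Hmx2 belong to the list of 10 intercalated cell markers. Of these 10 members 9 were higher in DN sums, 6 with an unadjusted p under 0.05 (against 7.38% of all genes with one in either direction) and 0 past the threshold, with a median log2 difference of 1.26 beside 0.00 over all genes. Since single barcodes held most Slc26a4 UMIs of the DN libraries, the 10 members are not separate observations. Their summed level was 304 to 1203 CPM in the 3 control libraries and 1967 to 2166 in the 3 DN libraries at 6 weeks. At 12 weeks it was 1035 to 1814 in control and 249 to 3136 in DN libraries. There 1 of the 10 members was higher, beside a median log2 difference of 0.00 over all genes. When at most 2 UMIs of Atp6v1g3 and of Slc12a1 were allowed per barcode, 1205 CNT barcodes remained and the log2 difference of Slc26a4 at 6 weeks was 0.26 (adjusted p = 0.994), that of Igfbp5 −0.93 and that of Spink8 0.61. Atp6v1g3 is itself 1 of the 10 markers, so a smaller difference of the other markers under this limit was partly fixed in advance.

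**Figure D3:**
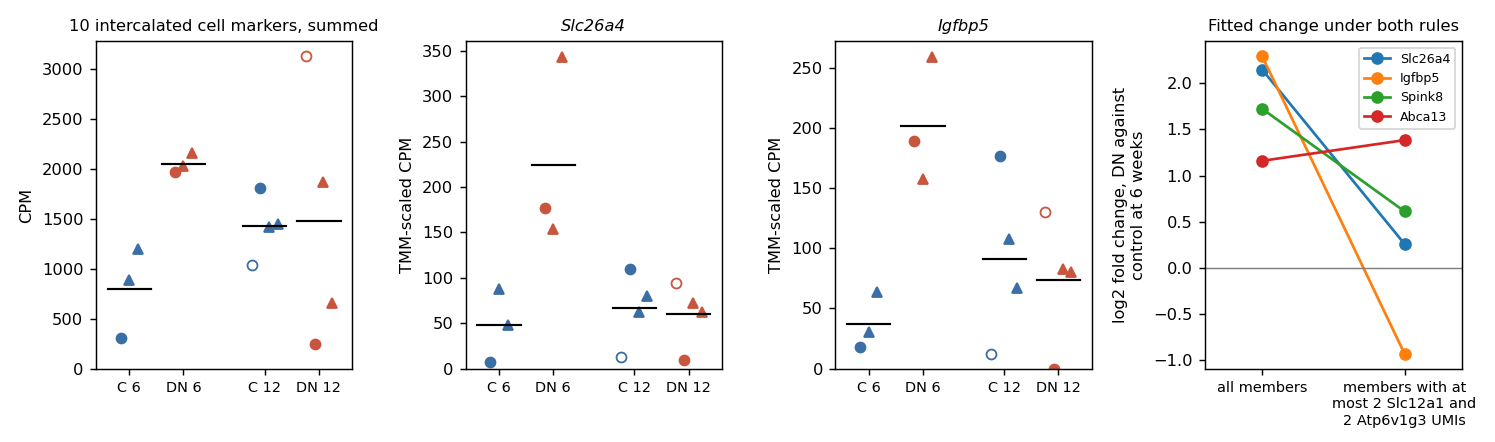
Summed CPM of 10 intercalated cell markers, and TMM-scaled CPM of Slc26a4 and Igfbp5, in the CNT sums of 14 libraries by genotype and age (symbols and lines as in the plot of shares). The right panel joins the fitted log2 differences at 6 weeks over all CNT barcodes and over those with at most 2 UMIs of Slc12a1 and of Atp6v1g3, where Slc26a4 goes from 2.15 to 0.26, Spink8 from 1.72 to 0.61 and Abca13 from 1.16 to 1.38.

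The difference of Abca13 did not shrink under this limit. This ABC transporter gene (chr11:9191942-9684259) was at 208, 78.4 and 110.4 in control and 405, 273 and 174 in DN libraries at 6 weeks, with overlapping ranges (log2 difference 1.16 ± 0.24, adjusted p = 0.0542, and 0.00262 with the pair term). Under the limit on Atp6v1g3 and Slc12a1 it was the 1 gene that passed (1.38, adjusted p = 0.0363). At 12 weeks its difference was 0.96 ± 0.22 (adjusted p = 0.0855, and 0.00770 with the pair term). Of the other genes with the lowest p at 6 weeks, Spink8 differed by 1.72 and AC078895.1 by 2.27 (adjusted p = 0.0542 each), Emb by 1.77 (0.110), Abr by −1.60 (0.138), Tmsb10 by 1.38 and the carbonic anhydrase gene Car12 by 0.99. With the pair term these passed except Tmsb10, at adjusted p of 0.000201 (Spink8), 0.00386 (AC078895.1), 0.0140 (Emb), 0.0306 (Abr) and 0.0472 (Car12). Further genes that passed with the pair term at 6 weeks, named here after their values were seen, included Kap (−2.75) and the transcription factor gene Jun (−1.85), both lower in DN sums, and Atp6v1c2 (1.36), Atp6v0d2 (1.28), Car2 (1.09) and Cenpf (4.13).

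At 12 weeks 7 of 5554 genes passed the threshold (0.126%), all of them higher in DN sums. An unadjusted p under 0.05 was reached by 278 genes (5.01%). In 142 of all genes (2.56%), and in 3 of the 7, the 4 DN libraries did not overlap with the 4 control libraries. With the pair term 25 genes passed, 17 higher and 8 lower, and these included all 7. Without control female 12 weeks replicate 2, or without DN female 12 weeks replicate 2, 0 genes passed, without control male 12 weeks replicate 2 there were 2, and without DN male 12 weeks replicate 1 there were 12. One of the 7 was Calb1, which the rule uses and which is given as a description: 5767 to 7154 TMM-scaled CPM in 3 control libraries and 4152 in control female replicate 2, against 11396, 7326, 10624 and 11891 in DN libraries.

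Idh1 (chr1:65158616-65186500), the gene of cytosolic isocitrate dehydrogenase, was at 49.4, 39.0, 21.5 and 24.9 in the control libraries (female replicates 1 and 2, male replicates 1 and 2) and at 118, 111, 104 and 73.8 in the DN libraries. All 4 DN libraries lay above all 4 control libraries, with a log2 difference of 1.79 ± 0.28 (adjusted p = 0.00471). No barcode held more than 7 of its UMIs in a DN library at 12 weeks. Without control female 12 weeks replicate 2 its adjusted p was 0.0686, without DN female 12 weeks replicate 2 it was 0.0556, and with at most 20% mitochondrial UMIs 0.0650. Scg5 (chr2:113776362-113829121), which encodes the secretory chaperone 7B2, was at 259, 116, 168 and 121 in control and 474, 297, 715 and 248 in DN libraries. Here the lowest DN library lay just below the highest control library (log2 difference 1.53 ± 0.26, adjusted p = 0.00518). The adjusted p of Scg5 was 0.101, 0.0889 and 0.0917 without control female, control male or DN female 12 weeks replicate 2. With at most 20% mitochondrial UMIs its log2 difference was 0.90 (adjusted p = 0.534). That limit kept 524 of 1420 CNT barcodes, and libraries with fewer than 10 left the fit. Control and DN female 12 weeks replicate 1 then held 0, and control and DN male 6 weeks replicate 1 held 3 and 4. The part of this loss in the higher adjusted p was not tested. At 6 weeks Idh1 was at 148, 29.4 and 45.6 in control (female replicate 2, male replicates 1 and 2) and 96.3, 57.8 and 127 in DN libraries, so that its highest value in all 14 libraries came from a control library. Scg5 was at 567, 138 and 104 in control and 652, 231 and 259 in DN libraries, with overlapping ranges. The log2 differences at 6 weeks were 0.54 for Idh1 and 0.72 for Scg5, and the difference between the ages did not pass the test for either (adjusted p = 0.847 and 1.00).

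Ier3 (chr17:35821684-35822923), an immediate early response gene, was at 161, 68.1, 182 and 64.4 in control and 166, 204, 446 and 302 in DN libraries at 12 weeks. The ranges overlapped and the log2 difference was 1.47 ± 0.29 (adjusted p = 0.0261). DESeq2 did not call it (adjusted p = 0.129), nor did it pass without control female, control male or DN female 12 weeks replicate 2, DN male 12 weeks replicate 1 or DN male 6 weeks replicate 1, without the batch term, or with at most 20% mitochondrial UMIs (8 alternatives in all, adjusted p = 0.0521 to 0.373). Pde10a, a phosphodiesterase gene, rested on 6 UMIs in control and 48 in DN libraries at 12 weeks. It was at 12.4, 0, 0.524 and 1.28 in control and 11.8, 37.1, 11.8 and 69.3 in DN libraries, where 12.4 stands for 1 UMI (log2 difference 5.12, adjusted p = 0.0226, and 0.304 by DESeq2). At 6 weeks it was at 73.9, 3.92 and 0.712 in control and 16.1, 0 and 42.4 in DN libraries, so that its highest value came from a control library. Its adjusted p was 0.0548 to 0.357 with at least 2% Calb1 and S100g, or without control female 12 weeks replicate 2, either control male at 12 weeks, DN female 12 weeks replicate 2 or DN male 12 weeks replicate 2.

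Krt8 and Krt18, which encode the partner keratins of simple epithelia and sit side by side on chromosome 15, were the called members of the tubular injury list. Krt18 (chr15:102028180-102032027) was at 37.1, 73.7, 60.8 and 64.1 in control and 130, 529, 141 and 101 in DN libraries. All DN libraries lay above all control libraries (log2 difference 1.62 ± 0.26, adjusted p = 0.00471). Krt8 (chr15:101996698-102004482) was at 12.4, 77.4, 97.4 and 87.4 in control and 35.5, 395, 114 and 204 in DN libraries, with overlapping ranges (1.26 ± 0.24, adjusted p = 0.0232). A single barcode of DN female replicate 2, with 21008 UMIs and 4731 genes, held 91 of that library's 114 Krt18 UMIs, 71 of its 85 Krt8 UMIs and 19 of its 20 Krt19 UMIs. In DN male replicate 2, the second highest library for Krt8, 1 barcode held 41 of 91 Krt8 UMIs and 1 held 19 of 45 Krt18 UMIs. In no other library did a barcode hold more Krt18 UMIs than these 19. Without that barcode, a choice made after seeing it, Krt18 differed by 0.96 (adjusted p = 0.0835) and Krt8 by 0.61 (adjusted p = 0.649). When at least 2% of UMIs from Calb1 and S100g were required, which that barcode did not reach at 1.84%, Krt18 differed by 0.84 (adjusted p = 0.298) and Krt8 by 0.44 (adjusted p = 0.995). Neither passed without control female 12 weeks replicate 2 or DN female 12 weeks replicate 2 (adjusted p = 0.373 and 0.361 for Krt18, 0.907 and 0.748 for Krt8), and Krt8 also failed without the other female library of either genotype or without either replicate 2 male library at 12 weeks (adjusted p = 0.0789 to 0.150). Krt8 likewise failed without the batch term, within the larger batch and with at most 20% mitochondrial UMIs, which makes 11 alternatives in all (adjusted p = 0.0541 to 0.995).

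The 250 bases before the RefSeq start of transcription of the called genes Krt8, Krt18, Idh1 and Scg5 are shown because these genes were called together in DN sums. They lie at chr15:102004343-102004592 (minus strand), chr15:102027966-102028215 (plus), chr1:65186480-65186729 (minus) and chr2:113829092-113829341 (minus) of GRCm38.p6 and are written 5′ to 3′ in the direction of the gene. Capitals mark matches on either strand to the letters TATAA of the TATA box, to CCAAT of the box of that name, to GGGCGG of the GC box, or to TGANTCA of the AP-1 site. These letters were chosen after the sequences were read.
Krt8: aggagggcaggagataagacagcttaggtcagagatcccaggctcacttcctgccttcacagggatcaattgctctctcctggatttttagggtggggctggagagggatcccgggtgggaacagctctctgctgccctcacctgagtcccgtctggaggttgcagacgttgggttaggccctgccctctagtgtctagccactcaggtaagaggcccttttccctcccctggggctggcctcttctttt
Krt18: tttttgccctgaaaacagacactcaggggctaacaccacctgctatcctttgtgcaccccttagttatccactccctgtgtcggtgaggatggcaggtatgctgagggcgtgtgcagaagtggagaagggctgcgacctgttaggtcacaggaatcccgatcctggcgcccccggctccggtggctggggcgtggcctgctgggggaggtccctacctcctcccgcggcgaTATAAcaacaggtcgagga
Idh1: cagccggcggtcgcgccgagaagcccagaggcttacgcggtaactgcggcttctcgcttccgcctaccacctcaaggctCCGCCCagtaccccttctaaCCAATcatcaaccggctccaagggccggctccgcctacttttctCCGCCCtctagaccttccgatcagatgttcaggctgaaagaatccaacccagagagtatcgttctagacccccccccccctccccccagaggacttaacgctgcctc
Scg5: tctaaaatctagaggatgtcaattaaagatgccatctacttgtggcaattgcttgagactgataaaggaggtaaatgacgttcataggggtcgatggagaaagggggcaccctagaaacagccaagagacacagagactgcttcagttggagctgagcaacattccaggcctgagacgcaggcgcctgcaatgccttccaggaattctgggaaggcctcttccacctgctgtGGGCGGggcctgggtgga
The sequence of Krt18 held TATAA 19 bases before the start. That of Idh1 held CCAAT and 2 matches to GGGCGG (written CCGCCC on the strand shown), that of Scg5 held GGGCGG, and that of Krt8 held none of the 4. GGGCGG was thus found in 2 of the sequences, and none of the 4 motifs in all of them. Of 32817 RefSeq promoters of this length, 22.8% held TATAA, 33.8% CCAAT, 32.7% GGGCGG and 6.75% TGANTCA. The GENCODE starts of Krt8, Krt18, Idh1 and Scg5 lie 140, 36, 21 and 30 bases upstream of the RefSeq starts, so that these last bases of each sequence fall inside the gene coordinates given above, among them TATAA of Krt18 and GGGCGG of Scg5. A match is a description and not a binding site.

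**Figure D4:**
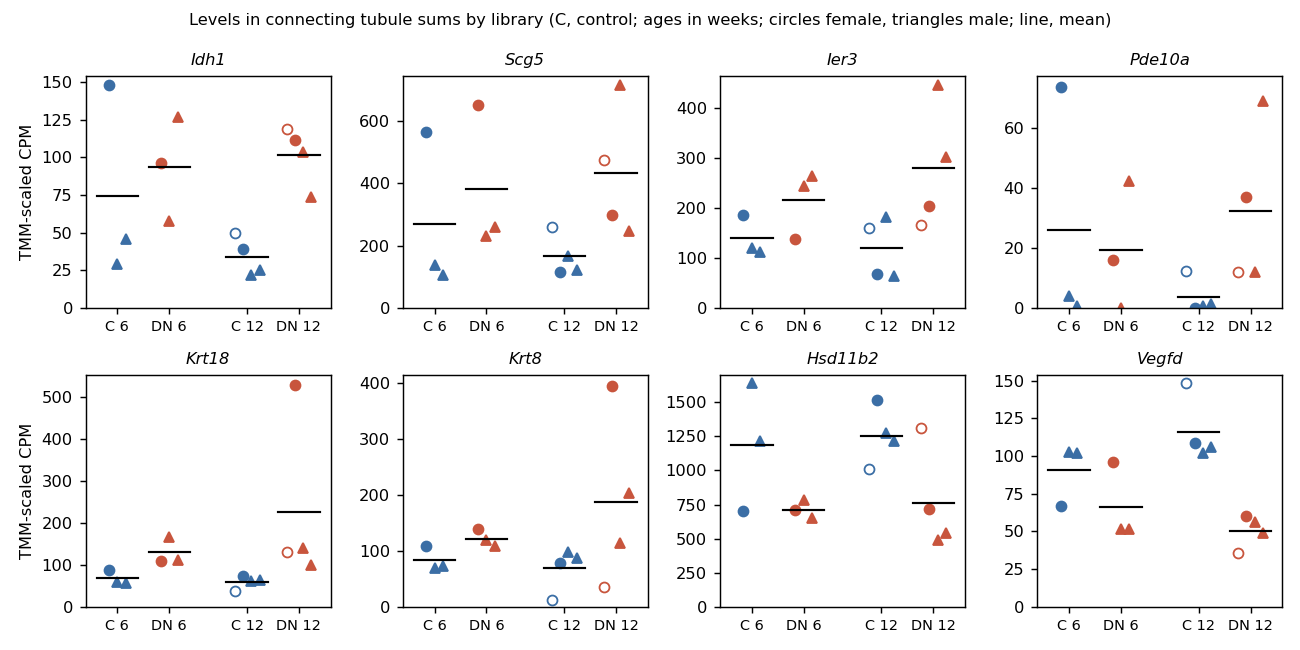
TMM-scaled CPM in CNT sums of 14 libraries for Idh1, Scg5, Ier3, Pde10a, Krt18, Krt8, Hsd11b2 and Vegfd, by genotype (C, control) and age in weeks, with circles for females, triangles for males and lines for means. At 12 weeks the DN values of Idh1 (73.8 to 118) lie above the control values (21.5 to 49.4), and 1 DN library carries Krt18 at 529.

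The remaining members of the injury list stayed below the threshold at 12 weeks. Of 10 tested, 8 were higher in DN sums, as were 50.9% of all genes, and 2 were called, where 0.126% of all genes were. The median log2 difference was 0.43 beside 0.00 over all genes. At 6 weeks 7 of 10 were higher, as were 50.2% of all genes, and 0 were called of the list or of all genes, with the same median of 0.43. S100a11 was at 49.4, 100.3, 111 and 108 in control and 107, 358, 161 and 141 in DN libraries at 12 weeks (0.91, adjusted p = 0.148, and called with the pair term). Cd24a differed by 0.83 (adjusted p = 0.239, likewise called with the pair term). Spp1, the osteopontin gene, differed by 0.14 and Clu by −0.08. Lcn2, which encodes the injury marker lipocalin-2, was at 0 in all 4 DN libraries at 12 weeks and reached 1.59 in control ones. That value rested on 5 UMIs, and the other control libraries held 0 or 1. In these DN libraries 1 UMI stands for 1.48 to 11.8 CPM, so that the zeros do not show a lower level.

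Of the 8 tested calcium genes that the rule did not use, 0 passed between the genotypes at either age, where 0.0% of all genes passed at 6 and 0.126% at 12 weeks, so that the count does not set these genes apart. Their medians were −0.10 at 6 weeks and 0.21 at 12 weeks. Trpv5 was at 37.1, 71.8, 74.9 and 82.3 in control and 82.9, 149, 54.8 and 116 in DN libraries at 12 weeks (log2 difference 0.39), with overlapping ranges. Pth1r was at 174 to 321 in control and 130 to 467 in DN libraries (0.56). Kl was at 2210, 2844 and 3422 in control and 1721, 1346 and 2348 in DN libraries at 6 weeks (−0.63), and neither this nor its difference at 12 weeks passed. S100g, of the rule, was at 32601 to 40911 in control and 24147 to 41243 in DN libraries at 12 weeks.

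Of the 16 tested genes of the sodium list 0 passed at either age, against the same background of 0.0% and 0.126% (medians −0.14 and −0.07), and Hsd11b2 had the lowest adjusted p of them at 12 weeks. At 6 weeks Hsd11b2 was at 700, 1644 and 1219 in control and 706, 784 and 649 in DN libraries, and at 12 weeks at 1013, 1518, 1271 and 1218 in control and 1315, 715, 489 and 539 in DN libraries. In the larger batch all 3 DN libraries at 12 weeks lay below all 3 control libraries, and the DN library of the smaller batch lay above its control. The log2 difference was −0.67 ± 0.26 at 6 weeks (adjusted p = 0.567) and −0.88 ± 0.23 at 12 weeks (adjusted p = 0.227). With the pair term it passed at 12 weeks (−0.91, adjusted p = 0.0189), as it did within the larger batch (−1.22, adjusted p = 0.0159). Sgk1, the kinase gene that aldosterone induces, was at 42.2, 61.7 and 58.4 in control and 122, 116 and 84.7 in DN libraries at 6 weeks, without overlap (0.95, not called). Wnk1 (2097 to 2286 in control, 1784 to 1899 in DN libraries) and Wnk4 (162 to 304 and 132 to 154) also did not overlap at 6 weeks. Both were lower in DN libraries. Of all genes tested, 12.0% did not overlap at 6 weeks. The channel subunit genes Scnn1a, Scnn1b and Scnn1g did not pass at either age. Scnn1a was at 235 to 307 in control and 166 to 234 in DN libraries at 12 weeks (−0.37), again without overlap, as in 2.56% of all genes at that age.

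Klk1, the highest transcript of the kallikrein list, was at 33159, 42441 and 42936 in control and 27626, 30368 and 27368 in DN libraries at 6 weeks. The groups did not overlap, as in 12.0% of all genes at that age. The log2 difference was −0.46 (adjusted p = 0.711). At 12 weeks it was at 46533, 35674, 42843 and 32549 in control and 12403, 31934, 37981 and 31359 in DN libraries, which overlapped (−0.55, adjusted p = 0.844). The lowest value came from DN female replicate 1, a library of the smaller batch with 16 CNT barcodes. Atp6ap2 differed by 0.70 at 6 weeks and Kng2, a kininogen gene, passed at neither age.

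**Figure D5:**
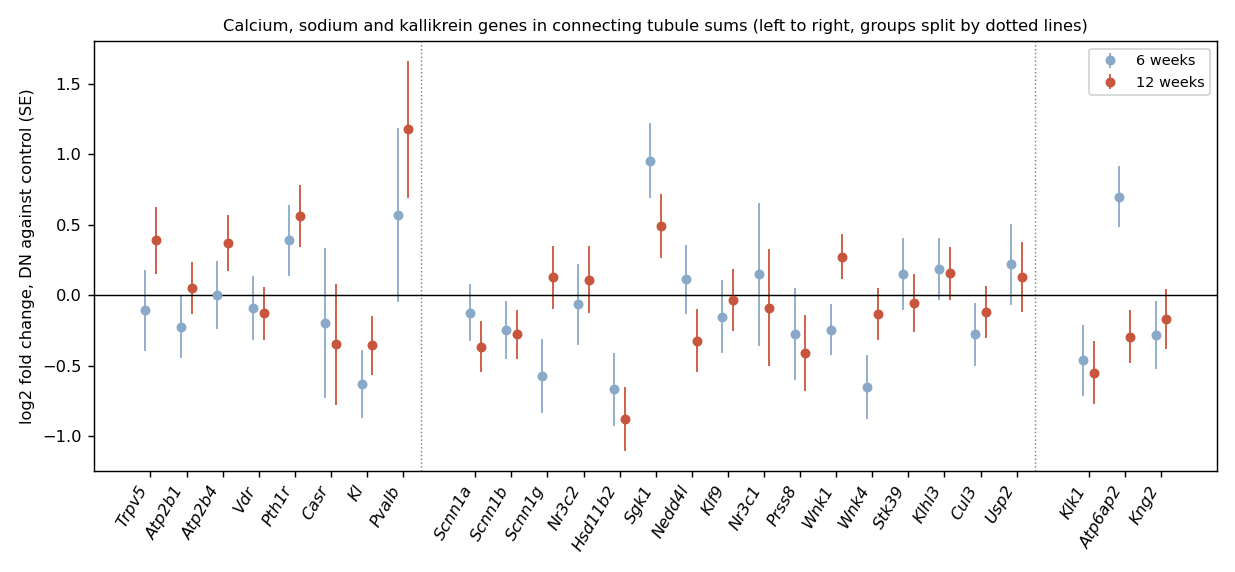
Fitted log2 difference, DN against control, with its SE for the tested calcium, sodium and kallikrein genes in CNT sums at 6 and 12 weeks (left to right, groups split by dotted lines). None of these genes passed the threshold at either age. Hsd11b2 lies below 0 at both ages, at −0.67 and −0.88, and Calb1, S100g and Slc8a1 of the selection rule are not plotted.

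Genes lower in DN sums at 12 weeks did not pass either. Vegfd, which encodes a lymphatic growth factor, was at 148, 109, 102 and 106 in control and 35.5, 60.4, 56.3 and 49.2 in DN libraries, all DN below all control libraries (−1.02 ± 0.23, adjusted p = 0.0846, and 0.0228 with the pair term). The steroid dehydrogenase gene Hsd3b2, whose reads may be shared with related genes, was at 136, 71.2, 49.8 and 49.7 in control and 23.7, 18.6, 20.7 and 35.8 in DN libraries, again without overlap (−1.20, adjusted p = 0.0807, and 0.0249 with the pair term). Of all genes tested, 2.56% did not overlap at 12 weeks. Ly6c1, which may share reads with Ly6c2, differed by 1.37 (adjusted p = 0.0846, and 0.0194 with the pair term). The other genes that passed with the pair term at 12 weeks, named here after their values were seen, were Kap (−1.12), Pou3f3 (−0.81), Acta2 (−3.74), Tagln (−3.38) and Rgs5 (−2.35), which were lower in DN sums, and Cenpf (2.28), Top2a (2.47), Stmn1 (1.49), Cnnm2 (1.05), Ltc4s (0.98) and Cyb5rl, which were higher. Acta2, Tagln and Rgs5 are markers of smooth muscle cells and pericytes. Their whole list of 7 markers summed to 43.1 to 313 CPM in control and 75.9 to 169 in DN libraries at 12 weeks, which overlapped. It was higher in DN mice in both female pairs and lower in both male pairs. Cenpf and Top2a are genes of dividing cells, whose markers summed to 389 CPM in DN male 12 weeks replicate 2 and to at most 74.5 in every other library. The part of these cells in the differences was not tested. The 13 mitochondrially encoded genes of oxidative phosphorylation had a median difference of −0.33 at 6 weeks and −0.15 at 12 weeks, with 0 called, beside 0.0% and 0.126% of all genes. The median mitochondrial share per CNT barcode ran from 17.6 to 38.3% in control and from 11.3 to 34.4% in DN libraries, and its part in the gene differences was not tested.

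No gene passed a test of a different DN effect at 12 than at 6 weeks (0 of 5554, 0.0%, with 256 genes or 4.61% at an unadjusted p under 0.05), although 7 did with the pair term: Slc26a4, Hmx2, Igfbp5, AC078895.1, Car2 and Rgs2, whose difference was lower at 12 weeks, and Jun. Slc26a4 went from 2.15 to −0.39 and Igfbp5 from 2.29 to −0.51. In the test of a different DN effect in males than in females 0 of 6582 genes passed (0.0%, with 257 genes or 3.90% at an unadjusted p under 0.05), while 4 did without the filter on low counts and 5 with at most 20% mitochondrial UMIs. Between control CNT sums of 12 and 6 weeks 0 of 5554 passed (0.0%, with 420 genes or 7.56% at an unadjusted p under 0.05), while 31 did without the filter and 3 without control male 6 weeks replicate 2.

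Between the sexes 9 of 5554 genes passed (0.162%), 5 higher (0.09%) and 4 lower (0.072%) in males, and 433 (7.8%) had an unadjusted p under 0.05. These were 4 genes of the Y chromosome, Xist, Tsix (which overlaps Xist on the opposite strand, so that reads of both cannot be told apart without strand), the predicted gene Gm8797, Kap and Pvalb. Kap, which encodes an androgen-regulated protein of PT cells, was at 0 to 98.5 in the 6 female libraries and 35.3 to 2574 in the 8 male libraries (log2 difference 3.83 ± 0.63, adjusted p = 0.00165). It no longer passed without control female 6 weeks replicate 2 (adjusted p = 0.392) or control female 12 weeks replicate 2 (0.0880), and Tsix no longer passed without the first of these (−1.92, adjusted p = 0.946). The other 8 counted PT markers summed to 36.8 to 574 CPM in the female and 94.8 to 611 in the male libraries, which overlapped. Pvalb averaged 39.0 ± 39.9 in females and 11.2 ± 7.50 in males (−1.97, adjusted p = 0.0210). This call was lost in 7 alternatives (−2.16 to −1.56, adjusted p = 0.0612 to 0.648): without the batch term, with at most 20% mitochondrial UMIs, with at least 2% Calb1 and S100g, and without control female 6 weeks replicate 2, DN female 6 weeks replicate 2, DN female 12 weeks replicate 2 or DN male 6 weeks replicate 1. Pvalb was also higher in the shallowest than in the deepest CNT barcodes (above), as was Slc34a1, and the part of depth in this difference was not tested.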

How the data were processed

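Cell barcodes came from droplet single-cell RNA-seq of 16 glomerulus-enriched kidney preparations, 1 library per mouse. The authors made the deposited files, which hold whole counts of UMIs per gene and barcode for 31053 features, with Cell Ranger 3.0.2 and the mm10 genome, per the labels and the study's methods. The methods name 2 versions of the droplet kit without saying which library had which, and the study tested single cells with MAST. No barcode was called as a doublet here, only the gene limit and the UMIs of other lineages' markers removed barcodes.

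CNT barcodes were chosen by the rule given in the report, and their raw counts were summed per library. The members, gene lists and tests were chosen with earlier results of these data known. Genes were kept by filterByExpr (minimum count 10), scaled by TMM and tested with edgeR 4.0.16 (glmQLFit and glmQLFTest, R 4.3.3) with terms for sex within age, batch and genotype within age, which left 7 residual degrees of freedom over 14 libraries; batch was read from the barcodes that libraries share. P-values were adjusted by the Benjamini-Hochberg method over all genes tested. DESeq2 1.42.0 was an alternative. CNT, DCT and PC sums were compared with the library as a block. Genes named between the genotypes were those that passed the threshold or, where fewer than 10 passed, the 10 with the lowest p, together with the calcium, sodium and kallikrein lists and called members of the other lists. Other genes were chosen after their values were seen. Errors are SDs over libraries (levels) or SEs of the fit (log2 differences).

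The labels number the mice within sex, age and genotype. They do not say that same-numbered mice of the 2 genotypes were paired. The deviations of same-numbered libraries from their group means correlated at 0.128 (females, 12 weeks), 0.130 (males, 6 weeks) and 0.372 (males, 12 weeks). These values were not set against a null, and in females of 12 weeks the number coincides with the batch. They therefore do not establish pairs. The fit with a term for each same-numbered pair is only an alternative, given where it changed a call. 1 gene that passed with that term at 6 weeks is not reported here. The pair could not be checked for females at 6 weeks, where 1 library per genotype was fitted. Over both ages shares were compared by exact two-sided permutation within sex and age. At each age alone the genotype labels were permuted within the age, without regard to sex. Intervals are 95% Wilson intervals. The fits were tested on simulated data. Gene coordinates come from GENCODE M21 (30934 of the features matched) and promoter sequences from RefSeq, both on GRCm38. Whether the counting used strand is not given in the sources used here.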

Additional observations from a re-analysis of the deposited data

Results flagged for a closer look

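Of 82 sets of 4 libraries of 1 genotype and age, 8 held a library that stood apart by Dixon's test. Its gap to the nearest other library, divided by the range of the 4 values, exceeded the 95% critical value (0.829 for 4 samples). Chance alone gives about 5% of sets, or 1 in 20. Levels are TMM-scaled CPM in CNT sums at 12 weeks. Control female 12 weeks replicate 1, a library of the smaller batch with 18 CNT barcodes, stood apart in 5 genes, with S100g at 40911, Vegfd at 148, Prss8 at 49.4, Vdr at 605 and Pde10a at 12.4, the last of which stands for 1 UMI. Control female 12 weeks replicate 2 stood apart with Scnn1a at 307. DN female 12 weeks replicate 1, with 16 CNT barcodes, stood apart with Prss8 at 47.4. DN female 12 weeks replicate 2 stood apart with Krt18 at 529, of which 91 of 114 UMIs came from 1 barcode.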

How the results depend on the processing

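The segment comparisons kept their counts within 1.5 times under every alternative run (2895 to 3390 genes against DCT and 5380 to 5991 against PC barcodes without 1 library). No result that passed its threshold changed direction under these alternatives. Plain CPM was not among them. By plain CPM, 718 of 5903 passing genes compared had the opposite sign against PC barcodes, and 10 of 3365 against DCT barcodes. The counts of genes between the genotypes did not stay within 1.5 times. At 6 weeks, where 0 passed, 16 passed with the replicate block, 42 without the filter on low counts, 4 with at most 20% mitochondrial UMIs, 12 with at least 2% Calb1 and S100g, 1 with at most 2 UMIs of Slc12a1 and of Atp6v1g3, and, in alternatives chosen after seeing the data, 6 in barcodes with at least 2000 UMIs and 1 in barcodes with at most 50 Krt18 UMIs. Leaving out 1 library gave 0 to 8. The limit of 20% mitochondrial UMIs kept 524 CNT barcodes, so its fits held fewer barcodes and fewer libraries. At 12 weeks, where 7 passed, 4 did without the batch term, 25 with the replicate block (including all 7), 61 without the filter and 15 under the limit on Slc12a1 and Atp6v1g3 (including 6 of the 7), and 0 to 12 without 1 library. The difference between ages gave 7 with the block, 22 without the filter, 1 with at most 20% mitochondrial UMIs and 0 to 12 without 1 library, 12 of them without DN male 12 weeks replicate 1. The comparison of the sexes gave 49 without the filter, 5 with at most 20% mitochondrial UMIs and 5 to 12 without 1 library, 5 of them without control female 6 weeks replicate 2. The difference of the DN effect between sexes gave 4 without the filter and 5 with at most 20% mitochondrial UMIs. Control mice of 12 against 6 weeks gave 31 without the filter and 0 to 3 without 1 library, 3 of them without control male 6 weeks replicate 2. Early against late barcodes gave 14 without the filter and 5 to 34 without 1 library, 34 of them without control male 6 weeks replicate 2. The difference in shares was −1.33 percentage points after thinning (exact p = 0.156), −0.581 with at most 20% mitochondrial UMIs (exact p = 0.341) and −1.46 to −0.832 without 1 library, and at 12 weeks −2.60 to −1.28. The causes were not tested. The calls of named genes that the replicate block changed are given beside the results, and it changed no other call of a named gene between the genotypes or the ages. Counting error limits the smaller batch, where 1 UMI stands for up to 12.4 CPM. The difference of the DN effect between sexes could not be fitted without either female 6 weeks replicate 2 library, and early against late barcodes had no library of the smaller batch to leave out.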
